A study of Mus musculus with 8 samples.

Results

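The genes examined here encode interleukins, chemokines, TNF and their receptors, in cultured mouse macrophages with and without a deletion of miRNA clusters. They were chosen by symbol: every gene in the table whose name begins with Il, Ccl, Ccr, Cxcl, Cxcr or Ackr followed by a digit, together with Ccrl2, Cx3cr1 and Tnf and without Cxcl10 and Cxcl12. The rule found 81 of 15853 genes. Of these, 36 encode ligands, 43 encode receptor chains and 2 encode neither, namely Il18bp, a secreted protein that binds and blocks IL-18, and Il4i1, an amino acid oxidase. Il6 and the Ackr genes were not analysed here.

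Interleukins are secreted signals that bind receptor chains on the cell surface, most of which act through JAK kinases and STAT transcription factors, while the IL-1 family acts through MYD88 and NF-kB. Chemokines are small secreted proteins that guide migrating leukocytes by way of G protein-coupled receptors. Macrophages both make and receive these signals, and in the fat tissue of obese animals they are known as a source of CCL2, TNF and IL-1 beta.

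Bone marrow cells were grown into macrophages for 7 days with supernatant of the fibroblast line L929, a source of M-CSF. For the next 24 h the medium held insulin at 10 nM, glucose at 25 mM and the saturated fatty acid palmitate (C16:0) at 250 uM. The 4 control libraries carry the genotype Mirc11fl/fl Mirc22fl/fl Lyz2+/+ and the 4 knockout libraries Mirc11fl/fl Mirc22fl/fl Lyz2Cre/Cre, so floxed alleles of both miRNA clusters and the treatment are common to all 8 libraries. Lyz2, which drives Cre, is a myeloid gene and both of its copies carry the insertion, so the knockout differs from the control in Cre and in Lyz2 as well as in the clusters. The libraries are described as biological replicates, but the labels do not say whether they came from separate mice, nor the age of the mice. The errors therefore measure the spread between these libraries.

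Values of single libraries were not used, because the deposited columns carry numbers that match no sample label. Each gene is described by the normalized count that the authors averaged over the libraries, their log2 fold change and their adjusted p by DESeq2. An error written with ± is the standard error (SE) of a log2 fold change, over 4 control and 4 knockout libraries. A gene is called higher or lower where the adjusted p is under 0.05. Intervals are normal 95% intervals from the SE, and the level in each group was derived from the mean and the fold change, with equal group sizes. The file does not say which group is the numerator. The direction was read from Lyz2, whose log2 fold change was -9.10 ± 0.42 in the authors' deposited table and whose copies both hold Cre in the knockout. Every direction given here rests on that reading.

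Macrophage genes were expressed in both groups. Of 24 macrophage identity genes, 1 (Adgre1) was called higher and 11 lower, Lyz2 among the latter, with a median log2 fold change of -0.19. Stromal markers moved the other way: 17 of 19 were called higher and 0 lower, with a median of 2.01, and their summed level without Vim was 3287 normalized counts in the control and 13099 in the knockout. None of the tested markers of T and NK cells (6 genes), neutrophils (3) or dendritic cells (6) was called. Ebf1 and Cd22 of 4 B cell markers, and Gata2 and Siglecf of 3 markers of mast cells, basophils and eosinophils, were higher. Cd3d, Cd3e, Cd3g and Ly6g, which define T cells and neutrophils, were not analysed here. The part of these marker changes in the results that follow was not tested, and in such bulk samples fewer cells of a type and less RNA per cell cannot be told apart.

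The deleted clusters encode miRNAs that fall in families by seed, and their sequences are shown because matches to them were sought in the cytokine and receptor transcripts. Capitals mark the seed, bases 2 to 8 counted from the 5′ end. The sequences are those of RefSeq (GRCm38.p6). The miR-27 copies of the clusters share their seed and are not identical outside it, while the miR-24 copies are identical. The mature 3p form of miR-23b is named only.
miR-23a-3p: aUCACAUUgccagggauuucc
miR-27a-3p: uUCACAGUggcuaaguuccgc
miR-27b-3p: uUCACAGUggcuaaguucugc
miR-24-3p: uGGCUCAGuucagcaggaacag

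For each gene, the longest 3′ UTR in the annotation (GENCODE M21, GRCm38, the assembly of mm10) was searched on the sense strand for AATGTGA (miR-23), ACTGTGA (miR-27) and CTGAGCC (miR-24), the reverse complements of the seeds. The miR-23 and miR-27 words end in the same letters, TGTGA. Of the 73 tested members, 25 (34.2%) held at least 1 match, against 40.9% of 13072 genes. The shares were 12.3% of members and 16.7% of genes for miR-23, 15.1% and 17.4% for miR-27, and 16.4% and 19.2% for miR-24. A match is a stretch of letters and does not show binding.

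Among the called members, 3 of 9 that were higher and 5 of 14 that were lower held a match, as did 17 of 50 that were not called. The 25 members with a match had a median log2 fold change of 0.01, and 3 were called higher and 5 lower. The 48 without had a median of -0.11, with 6 called higher and 9 lower. The 3′ UTRs of members with a match were longer, at a median of 2220 nt against 709 nt. The windows below show matches in each called member that holds one, on the transcript's strand, but not every match. Further matches of lower members are left out: Il7r (miR-23), Il17ra (miR-24), Il21r (miR-24) and Il10ra (2 for miR-24). Capitals mark the match, with the A that follows it where there is one. Ccl7, Il2ra and Il17rd were higher in the knockout and the others lower.
Ccl7, miR-23 match at chr11:82047216-82047223, plus strand, exon 3: ggagctgtctgtaggAATGTGAAatg
Il2ra, miR-24 match at chr2:11691953-11691960, plus strand, exon 8: tagttctcttaaccaCTGAGCCAtct
Il2ra, miR-27 match at chr2:11692994-11693001, plus strand, exon 8: gggaaggcccaacccACTGTGAAagg
Il17rd, miR-24 match at chr14:27101653-27101659, plus strand, exon 13: gactgatccttggatCTGAGCCtgc
Il7r, miR-27 match at chr15:9506308-9506315, minus strand, exon 8: gtactatgtccaaatACTGTGAAata
Il17ra, miR-23 match at chr6:120482618-120482625, plus strand, exon 13: agtgcccggcttagaAATGTGAAcat
Il21r, miR-24 match at chr7:125632426-125632432, plus strand, exon 8: agtgtgatggaatgtCTGAGCCtgg
Il10ra, miR-27 match at chr9:45255421-45255427, minus strand, exon 7: cttttctgcagacctACTGTGAcca
Ccr3, miR-27 match at chr9:124030899-124030905, plus strand, exon 2: cagaattatgttgtaACTGTGAtgc

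Of the 81 members, 8 had no adjusted p, namely the ligand genes Il5, Il11, Il23a and Il34 and the receptor genes Il5ra, Il23r, Cxcr5 and Cxcr6, with means of at most 3.75 normalized counts. The other 73 were tested, and 23 of them (31.5%) were called, 9 higher and 14 lower. Over all 14619 genes tested, 23.0% were called, 11.3% higher and 11.7% lower. The median log2 fold change was -0.02 over the tested members and -0.00 over all genes tested.

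Ligands and receptors were called in different proportions. Of 32 ligands tested, 5 were higher and 2 lower (15.6% and 6.25%), with a median log2 fold change of 0.08. Of 39 receptors tested, 4 were higher and 12 lower (10.3% and 30.8%), with a median of -0.14. The medians differed by 0.22, a description over genes, which are not replicates. Among 15 receptors with a mean of at least 1000 normalized counts, 0 were higher and 10 lower, and among 14 such ligands 2 were higher and 1 lower. Of all 7692 genes with such a mean, 8.14% were higher and 17.6% lower. Median log2 fold changes at that level were -0.16 for ligands, with 9 of 14 below 0, -0.35 for receptors and -0.05 for all genes. At a mean of 50 to 1000 they were 0.18, 0.08 and 0.04. Below a mean of 50 they were 0.16 for ligands, -0.002 for receptors and 0.35 for all genes. The positive ligand median thus did not hold for abundant ligands. Of 24 macrophage identity genes, 11 were also lower, Lyz2 among them, and 1 was higher. Their part in the receptor values was not tested.

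**Figure D1:**
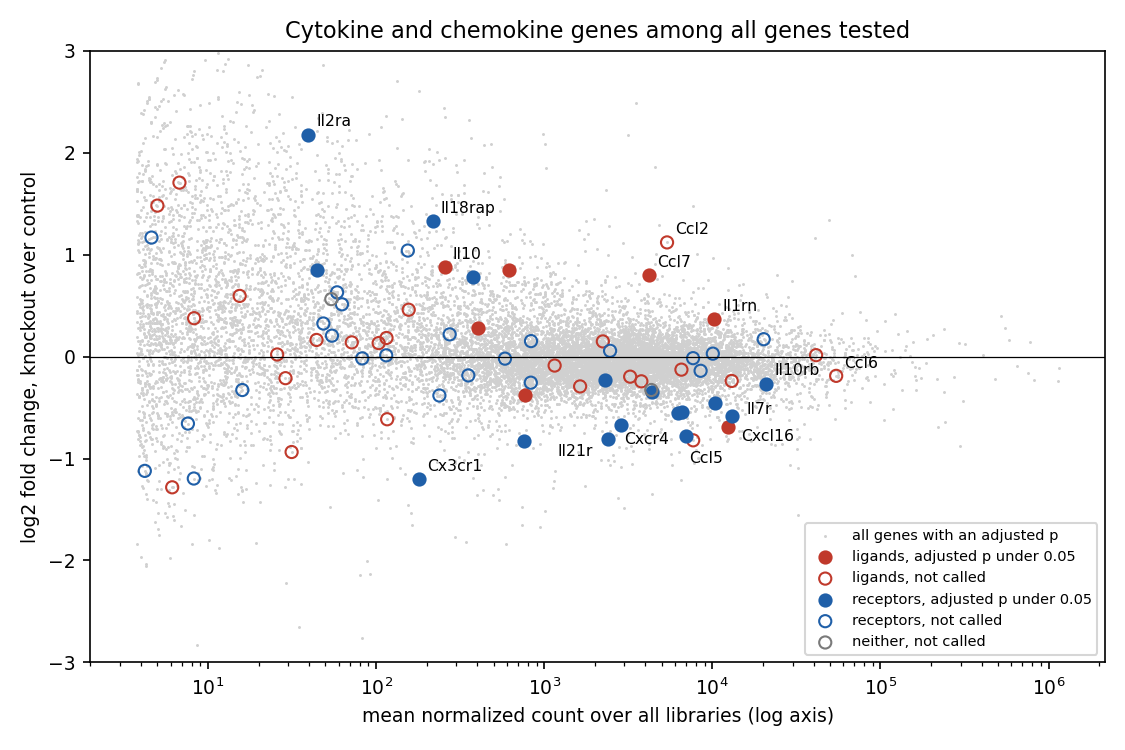
Log2 fold change of knockout over control (vertical axis) against the mean normalized count over all libraries (horizontal, log axis) for the tested ligands, receptors and 2 other members, over the tested genes in grey. Filled symbols have an adjusted p under 0.05, and 12 genes beyond 3 in either direction are not drawn. The filled receptor symbols at a mean of at least 1000 all lie below 0.

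Among the CC chemokines, 3 of 14 were higher (21.4%) and 0 lower, beside 11.3% and 11.7% of all genes tested. Ccl2, Ccl7 and Ccl12 encode monocyte chemoattractants that bind CCR2 and are near neighbours on chromosome 11. Ccl7 stood at 0.80 ± 0.26 (adjusted p = 0.0121) in the authors' deposited table, with a derived level that went from 3050.2 to 5317 normalized counts. Ccl12 stood at 0.85 ± 0.29 (adjusted p = 0.0176) per the authors' deposited table, the level going from 438 to 792. Both intervals lay above 0, from 0.30 to 1.31 for Ccl7 and from 0.29 to 1.42 for Ccl12. Both calls were lost at a threshold of 0.01.

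Ccl2 itself had the largest point estimate of these neighbours but missed the threshold. The authors' deposited table put it at 1.12 ± 0.45 (adjusted p = 0.0537), with derived levels of 3391 normalized counts in the control and 7369.9 in the knockout. Its adjusted p became 0.0484 with genes of a mean below 50 left out and 0.0406 with fold changes centred on the summed group means. It stayed above the threshold with no filter on low values (0.0582) and with fold changes centred on the median gene (0.0531). Ccl8, the remaining gene of the group, was at -0.13 ± 0.58 per the authors' deposited table, and its interval, from -1.27 to 1.02, covers changes of either sign. Of 19 stromal markers, 17 were higher, as were Ccl7 and Ccl12, and the part of the markers in these rises was not tested.

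The other run of CC genes on the same chromosome gave no call. Ccl3 and Ccl4, chemokines of activated macrophages, were at -0.24 ± 0.17 and -0.20 ± 0.14 in the authors' deposited table. Ccl6 and Ccl9, which bind CCR1, were at -0.19 ± 0.22 and 0.01 ± 0.24, and Ccl5 at -0.82 ± 0.77, again in the authors' deposited table. The interval of Ccl5 ran from -2.34 to 0.69. Thus 2 of 4 genes in the span chr11:82035571-82116799 were higher and 0 of 5 in the span chr11:83525778-83664683, and the difference between the spans was not tested. Of all genes tested, 11.3% were higher. Genes within a span are close relatives (Ccl2, Ccl7 and Ccl12, or Ccl6 and Ccl9), between which reads can be split uncertainly.

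**Figure D2:**
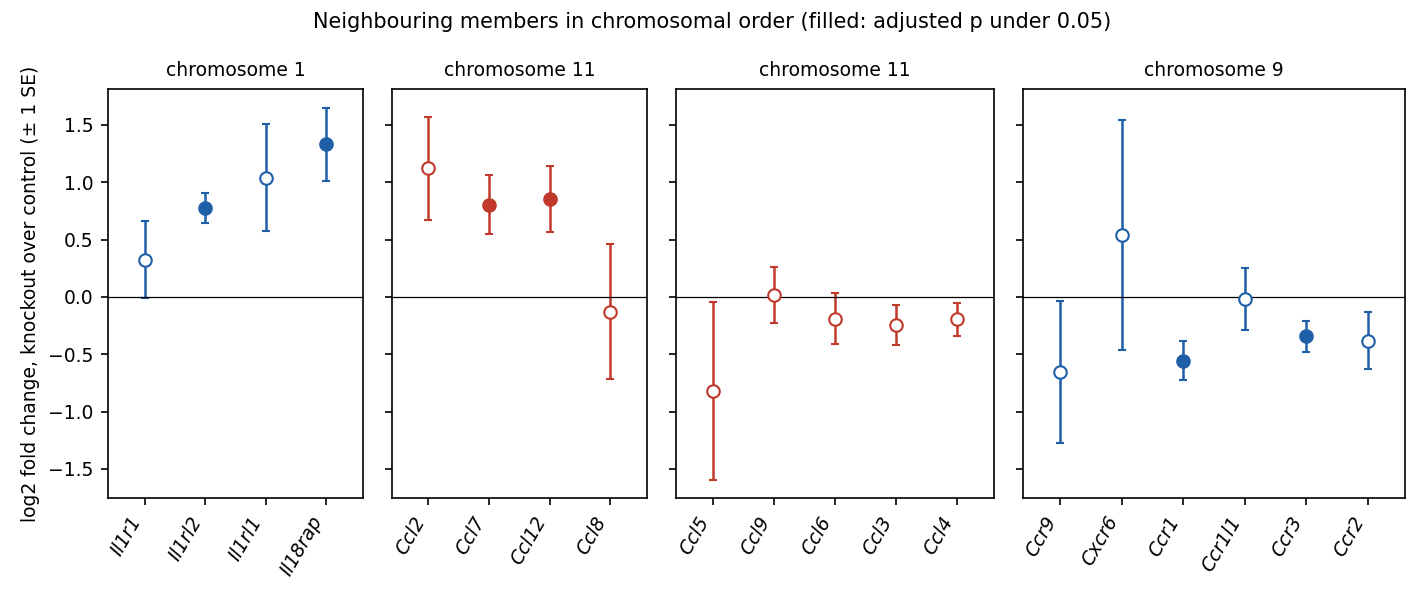
Log2 fold change of knockout over control with ± 1 SE (vertical axis) for named members that lie in runs of 4 or more with gaps of at most 500 kb, in chromosomal order (horizontal axis), 1 panel for each run. Red marks ligands, blue receptors and filled symbols an adjusted p under 0.05. Ccl2, Ccl7 and Ccl12 lie near 1 while the 5 genes of the other chromosome 11 run lie at or below 0.01.

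Ccl25, a chemokine of thymus and gut, was higher at 0.28 ± 0.10 (adjusted p = 0.0268) in the authors' deposited table. Its exons overlap those of Elavl1 on the opposite strand, and no source used here says if counting used strand, so that reads of the pair may be mixed. The authors' deposited table put the scarce Ccl28 at 1.71 ± 0.71 (adjusted p = 0.0652), Ccl24 at 0.60 ± 0.52, Ccl22 at 0.38 ± 0.62 and Ccl27a at 0.14 ± 0.24. None of these was called.

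The CXC chemokines kept by the selection rule lay mostly below 0. The rule leaves out Cxcl10 and Cxcl12. Of these, Cxcl12 was counted with the stromal markers and was called higher, at 2.34 ± 0.45 in the authors' deposited table. Of the 6 kept and tested, 1 was lower (16.7%, beside 11.7% of all genes tested) and 0 higher, with a median of -0.43. Cxcl16, a membrane-bound chemokine that also takes up oxidized lipoprotein, was lower at -0.69 ± 0.22 (adjusted p = 0.0104) per the authors' deposited table, with a level that went from 15363 to 9533 normalized counts. Its exons overlap those of Zmynd15 on the opposite strand. The neutrophil chemokine genes Cxcl1, Cxcl2 and Cxcl3, neighbours on chromosome 5, had estimates of -0.21 ± 0.33, -0.61 ± 0.27 and -1.28 ± 0.73 in the authors' deposited table and no call. Cxcl14 was at -0.24 ± 0.25 and Cxcl9, an interferon-induced ligand of CXCR3, at 0.13 ± 0.97 in the authors' deposited table.

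Il10, the gene of the anti-inflammatory IL-10, was higher in the knockout. The authors' deposited table put it at 0.87 ± 0.19 (adjusted p = 4.73e-05), and its derived level went from 180.1 to 330.4 normalized counts. Il1rn, which encodes the secreted antagonist of the IL-1 receptor, was also higher, at 0.37 ± 0.14 (adjusted p = 0.0387) in the authors' deposited table, with a level that went from 8916 to 11492. The agonists of that receptor were not called: Il1b was at 0.46 ± 0.19 (adjusted p = 0.0672) and Il1a at 0.18 ± 0.28 in the authors' deposited table. Centring on the summed group means brought Il1b past the threshold (adjusted p = 0.0348).

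Il18, an IL-1 family cytokine that is cut to its active form by caspase-1, was lower at -0.38 ± 0.10 (adjusted p = 0.00254) per the authors' deposited table, the level going from 870.0 to 669. Its inhibitor gene Il18bp was at -0.33 ± 0.60 in the authors' deposited table, with an interval from -1.51 to 0.85 that gives no direction. Its exons overlap those of Numa1 on the opposite strand. Tnf was at -0.09 ± 0.13 (adjusted p = 0.664) in the authors' deposited table, with derived levels of 1189 and 1118 normalized counts and an interval from -0.34 to 0.16. The authors' deposited table put Il15 at -0.29 ± 0.14, Il16 at 0.15 ± 0.12, Il27 at -0.94 ± 0.42, Il36g at 0.16 ± 0.27, Il7 at 0.02 ± 0.39 and Il4 at 1.48 ± 0.81, and the enzyme gene Il4i1 at 0.56 ± 0.29. None of these was called.

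**Figure D3:**
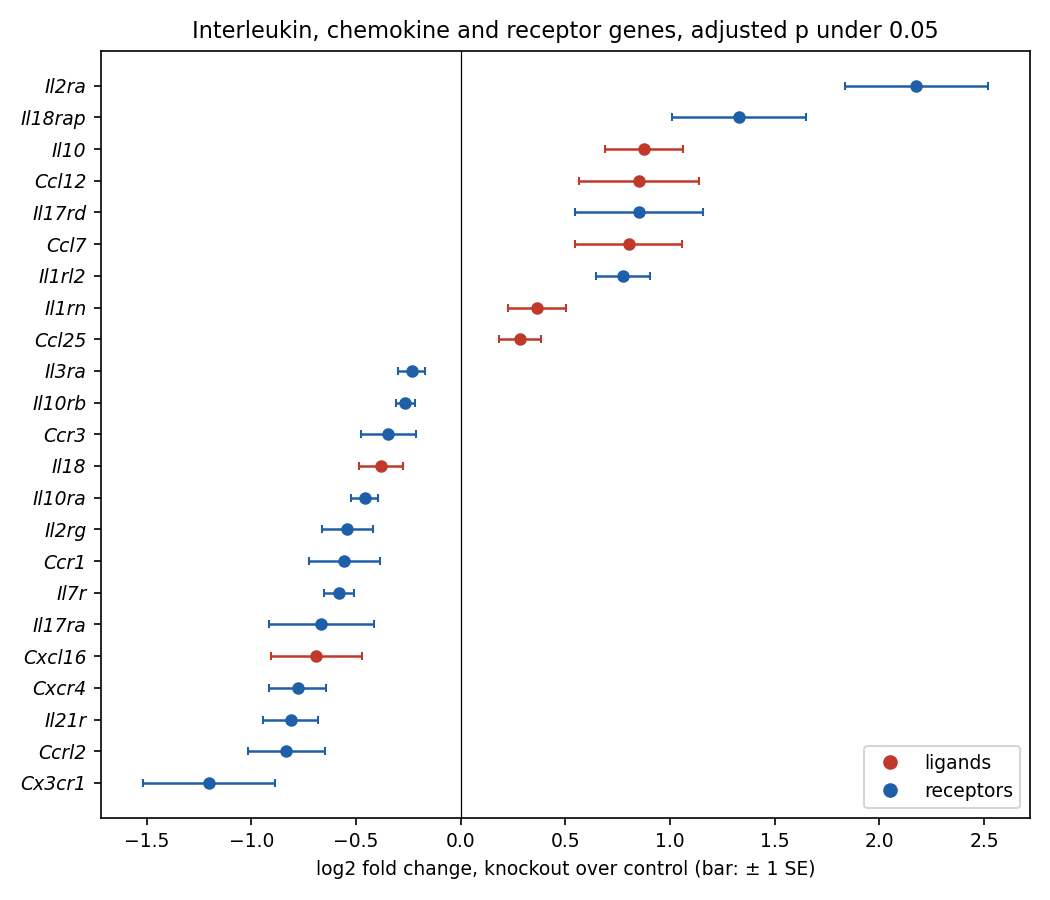
Log2 fold change of knockout over control (horizontal axis, bars ± 1 SE) for the 23 called genes in order, with ligands in red and receptors in blue. Of the 14 genes below 0, Il18 and Cxcl16 are the ligands and the other 12 are receptors.

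Chemokine receptors were called lower or not at all. Of 13 tested, 5 were lower (38.5%, against 11.7% of all genes tested) and 0 higher, with a median of -0.38. Lower calls made up 17.6% of genes with a mean of at least 1000, the range of Ccr1, Ccr3 and Cxcr4. At a mean of 50 to 1000, the range of Ccrl2 and Cx3cr1, they made up 8.73%. Cx3cr1, the fractalkine receptor of monocytes and resident macrophages, had the lowest estimate of the receptors, -1.20 ± 0.31 (adjusted p = 0.00142) per the authors' deposited table, with a level that went from 251 to 109 normalized counts. Ccrl2, which binds chemerin and does not signal as other chemokine receptors do, was at -0.83 ± 0.19 (adjusted p = 0.000131) in the authors' deposited table, with a level that went from 970.0 to 545. Cxcr4, the receptor of CXCL12, was at -0.78 ± 0.14 (adjusted p = 4.41e-07) per the authors' deposited table, the level going from 8870.5 to 5171.

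Ccr1, a receptor of CCL3, CCL5 and CCL7, was lower at -0.56 ± 0.17 (adjusted p = 0.00825) in the authors' deposited table, with a level that went from 7475 to 5086. Ccr3, an eotaxin receptor, was at -0.35 ± 0.13 (adjusted p = 0.0429) in the authors' deposited table, a call lost with fold changes centred on the summed group means (adjusted p = 0.112). Both lie in a run of 7 receptor genes on chromosome 9, in which 2 of 6 tested were lower and 0 higher. Of all genes tested, 11.7% were lower and 11.3% higher. Of those with a mean of at least 1000, the range of Ccr1 and Ccr3, 17.6% were lower. Ccr2, the receptor of CCL2, CCL7 and CCL12, was at -0.38 ± 0.25 (adjusted p = 0.267) in the authors' deposited table, with an interval from -0.87 to 0.10. Ccr1l1, a close relative of Ccr1 that could share reads with it, was at -0.02 ± 0.27 in the authors' deposited table.

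Other chemokine receptors had estimates with wide errors or near 0 and no call. Cxcr3, the receptor of CXCL9, was at 0.15 ± 0.09 and Cxcr2, the receptor of CXCL1 to CXCL3, at 0.21 ± 0.39 in the authors' deposited table. Cxcr1, Ccr9 and Ccr10, with mean normalized counts of 4.61, 7.60 and 8.23, were at 1.17 ± 0.89, -0.66 ± 0.62 and -1.20 ± 0.57 in the authors' deposited table.

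Of 8 receptor chains of the common gamma chain group, 1 was higher and 3 were lower, or 12.5% and 37.5%, beside 11.3% and 11.7% of all genes tested. The 3 lower chains had means of at least 1000 normalized counts, where 17.6% of all genes were lower. Il2rg, the common gamma chain itself, was lower at -0.54 ± 0.12 (adjusted p = 0.000129) per the authors' deposited table, with a level that went from 7835 to 5387 normalized counts. Il7r, the IL-7 receptor alpha chain, was lower at -0.58 ± 0.07 (adjusted p = 1.28e-13) in the authors' deposited table, with a level that went from 15676 to 10496. Il21r was lower at -0.81 ± 0.13 (adjusted p = 2.67e-08) per the authors' deposited table, the level going from 3046 to 1735. Il4ra, which pairs with the gamma chain or with the Il13ra1 product, was at -0.14 ± 0.08 and Il13ra1 at -0.26 ± 0.14 in the authors' deposited table, neither called. Il15ra (-0.18 ± 0.23) and the scarce Il2rb (-1.12 ± 0.97) had no call in the authors' deposited table either.

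Il2ra (chr2:11642807-11693193), the alpha chain that raises affinity for IL-2, had the highest fold change of all members. The authors' deposited table put it at 2.18 ± 0.34 (adjusted p = 9.15e-09), a 4.52-fold ratio with an interval from 1.51 to 2.84 on the log2 scale, and its derived level went from 14.3 to 64.8 normalized counts. It is a scarce transcript, and of 3056 tested genes with a mean below 50, 12.6% were higher and 0.589% lower, so rises were the common direction at that level. Markers of other cell types at a like level also rose: the B cell marker Ebf1 went from 4.17 to 30.2 normalized counts and the mast cell and basophil marker Gata2 from 4.30 to 20.6, while the stromal markers rose at a median of 2.01 on the log2 scale. The T cell and macrophage marker Cd4 went from 1720.3 to 1360.1 and the other T and NK cell markers, summed, from 35.4 to 41.6, with no call. The part of any of these in the Il2ra value was not tested.

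In the IL-1 receptor family, 4 of 5 genes had positive estimates, and 2 were called higher. Of all genes tested with a mean of 50 to 1000, the range that holds these genes apart from Il1r1, 16.5% were higher and 8.73% lower. Estimates in that range were above 0 for 2119 genes and below 0 for 1752. Il18rap, the accessory chain of the IL-18 receptor, was at 1.33 ± 0.32 (adjusted p = 0.000431) per the authors' deposited table, with a level that went from 123 to 310.3 normalized counts. Il1rl2, the IL-36 receptor, was at 0.78 ± 0.13 (adjusted p = 6.43e-08) in the authors' deposited table, with a level that went from 277 to 474. Il1rl1, the IL-33 receptor, was at 1.04 ± 0.47 (adjusted p = 0.0916) and Il1r1, the receptor of IL-1, at 0.32 ± 0.33 in the authors' deposited table, neither called. These genes are neighbours within 327 kb of chromosome 1. Il1rap, the accessory chain that IL-1, IL-33 and IL-36 share, lies on chromosome 16 and was at -0.02 ± 0.09 in the authors' deposited table, with an interval from -0.19 to 0.15.

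Both chains of the IL-10 receptor were lower. Of all genes with a mean of at least 1000, the range of both, 17.6% were lower. Il10ra was at -0.46 ± 0.06 (adjusted p = 3.59e-11) per the authors' deposited table, the level going from 12025 to 8747 normalized counts. Il10rb was at -0.27 ± 0.05 (adjusted p = 2.87e-07) in the authors' deposited table, with a level that went from 22844 to 19008. Il20rb, of the same receptor class, was at 0.01 ± 0.22 in the authors' deposited table and not called. Exons of Il10rb overlap those of Gm21970 and exons of Il2rg those of Gm20489 on the same strand, so reads could be assigned to either. On the opposite strand, exons of Cx3cr1, Il3ra and Il1b overlap those of Gm33858, Gm48860 and Il1bos.

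Receptors built on gp130 or on the IL-12 receptor chains gave no call in 6 tested genes. Il6ra (-0.02 ± 0.07) and the gp130 gene Il6st (0.03 ± 0.14) lay near 0 in the authors' deposited table, with intervals from -0.15 to 0.12 and from -0.25 to 0.31. The authors' deposited table put Il11ra1 at 0.06 ± 0.08, Il12rb1 at 0.63 ± 0.33, Il12rb2 at 0.22 ± 0.26 and Il27ra at 0.51 ± 0.29.

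Of 3 IL-17 receptors tested, 1 was lower and 1 higher. Of all genes with a mean of at least 1000, the range of Il17ra, 17.6% were lower and 8.14% higher. Of those with a mean below 50, the range of Il17rd, 0.589% were lower and 12.6% higher. Each call thus lay in the commoner direction at its level. Il17ra, the chain that the IL-17 receptors share, was lower at -0.67 ± 0.25 (adjusted p = 0.0370) in the authors' deposited table, a call lost with fold changes centred on the summed group means (adjusted p = 0.0647). Il17rd was higher at 0.85 ± 0.31 (adjusted p = 0.0279) per the authors' deposited table, and Il17rc, the partner of Il17ra for IL-17A, was at -0.33 ± 0.47 and not called. Il3ra, the alpha chain of the IL-3 receptor, was lower at -0.23 ± 0.06 (adjusted p = 0.00300) in the authors' deposited table.

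**Figure D4:**
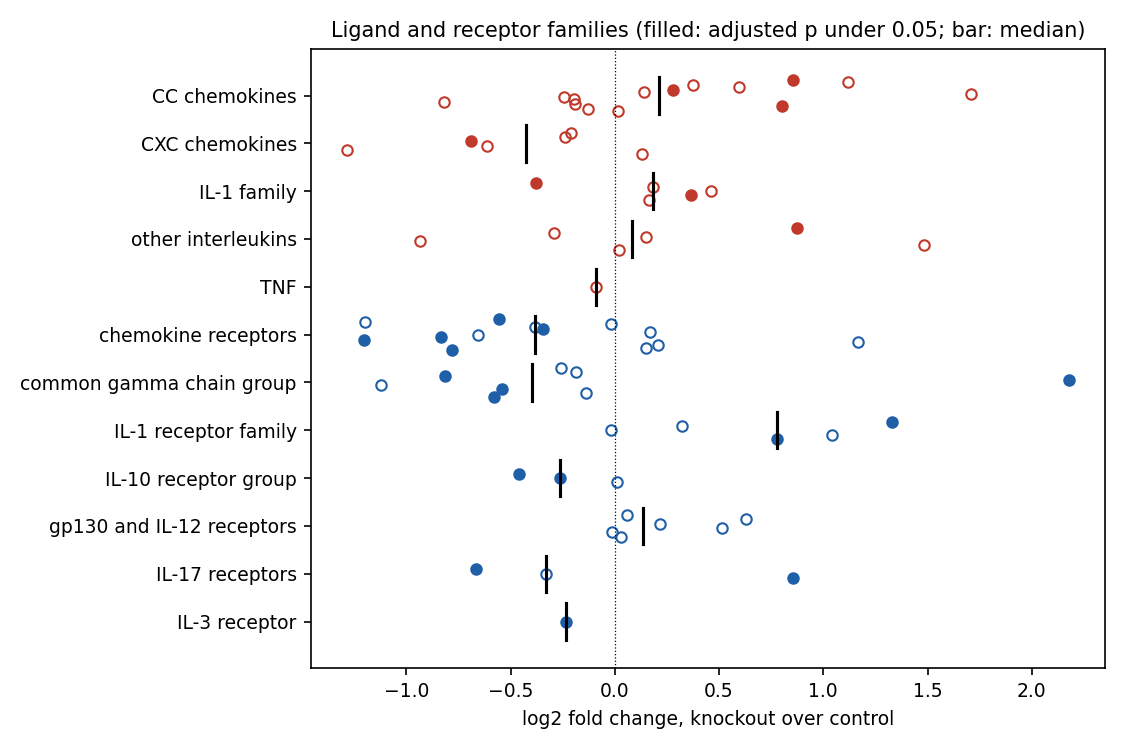
Log2 fold change of knockout over control (horizontal axis) for tested ligands and receptors by family (vertical axis), filled where the adjusted p is under 0.05, with a bar at the family median. The medians are -0.38 for the chemokine receptors, -0.40 for the common gamma chain group and 0.78 for the IL-1 receptor family.

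Ligands were set beside their own receptors in 42 known pairs with both genes tested. In 5 pairs both partners were called, 5 of them in opposite directions and 0 in the same direction. Il10 was higher while Il10ra and Il10rb were lower, Ccl7 was higher while Ccr1 and Ccr3 were lower, and Il18 was lower while Il18rap was higher. These pairs rest on only 3 ligands and are not independent, and the pair of Ccl7 and Ccr3 loses its receptor call with centred fold changes. Called ligands were mostly higher (5, against 2 lower) and called receptors mostly lower (12, against 4 higher). Opposite directions were therefore common among called ligands and receptors whatever their pairing. At a threshold of 0.01, 1 ligand was called higher and 1 lower, and 3 receptors were called higher and 10 lower. Ccl7 was then not called. For Ccl7 and Ccl12 with Ccr2 the ligand alone was called, and for Il7 with Il7r the receptor alone.

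Levels were compared between genes as the mean normalized count per kb of the longest annotated transcript. The ligand Ccl6 had the highest level in both groups, 40376 per kb in the control and 35421 in the knockout. The order of the next ligands changed with the group: in the control Ccl5 (18476 per kb) was above Ccl9 (13719.5) and Ccl8 (13389.9), and in the knockout Ccl5 (10456) was below Ccl9 (13854) and Ccl8 (12253). Il10rb was the highest receptor in both groups, at 12348 and 10275 per kb. Below it stood Cxcr4 (4914 and 2865), Il2rg (4692 and 3226) and Il7r (4428 and 2965), in an order that also differed between the groups. On the same scale, averaged over all libraries, Tnf was at 704, Il1b at 115 and Cx3cr1 at 40.1. Whether neighbours in the order differ beyond the spread of libraries was not tested.

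Ligands had larger errors than receptors for their abundance. Each SE was divided by the median SE of the 200 genes nearest in mean, and this ratio had a median of 1.35 over the tested ligands and 1.13 over the receptors. It was above 2 for 11 of 32 ligands and 3 of 39 receptors. The highest ratios were those of Ccl5 (10.4), Il18bp (8.54), Ccl8 (7.97), Ccl2 (6.31) and Cxcl9 (4.37), none of which was called. Among called members the ratio was above 2 for Ccl7 (3.52), Il17ra (3.17), Cxcl16 (3.03), Ccl12 (2.54) and Ccr1 (2.30), and for no other. Of these, all but Ccr1 lost their call at a threshold of 0.01. Ccl5 and Ccl8 had mean normalized counts of 7696 and 6552, so that low counts do not accompany their wide errors.

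**Figure D5:**
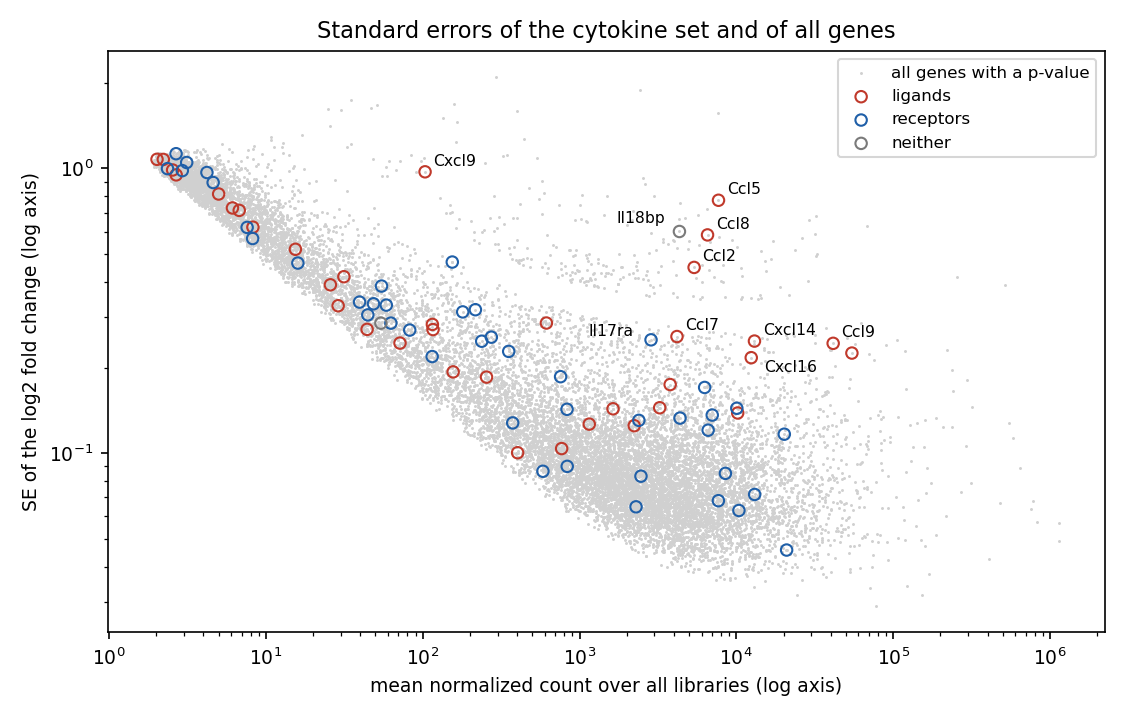
SE of the log2 fold change (vertical, log axis) against the mean normalized count (horizontal, log axis) for the members, over all genes in grey. Labelled genes have an SE more than 3 times the median of genes of like mean, among them Ccl5, with a ratio of 10.4, and Ccl8, with 7.97.

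Genes that carry these signals inside the cell were examined as lists. Over those for JAK and STAT signalling, IL-1 receptor signalling, TNF receptor signalling, chemokine receptor signalling and control of cytokine transcripts, 2 of 99 genes were higher and 23 lower, or 2.02% and 23.2%, with a median log2 fold change of -0.11. These are mostly abundant genes, with a median mean of 4629 normalized counts, and of all genes with a mean of at least 1000, 8.14% were higher and 17.6% lower. The balance moved with the scaling: centred on the summed group means, 6 were higher and 10 lower, and over all genes 70.9% of calls were then higher in place of 49.1%.

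Among JAK and STAT genes, 1 of 24 was higher and 3 lower (12.5%), a share of lower calls no larger than that of all genes with a mean of at least 1000. Cish, a feedback inhibitor induced by STAT5, was higher at 0.90 ± 0.29, while Socs7 (-0.35 ± 0.07), Stat3, the transcription factor downstream of IL-10 and IL-6 (-0.15 ± 0.05), and Pias3 (-0.17 ± 0.06) were lower in the authors' deposited table. In the IL-1 receptor list 1 of 24 was higher and 8 lower (33.3%, beside 17.6% of all genes with such a mean). The authors' deposited table put Irak3, an inhibitor of MYD88 signalling, at -0.40 ± 0.07, Gsdmd, the pore through which IL-1 beta leaves the cell, at -0.30 ± 0.07, Nfkbiz at -0.42 ± 0.11 and Tab3, the gene that rose, at 0.41 ± 0.09. Of 10 genes of TNF receptor signalling, 1 was lower (10%, beside 17.6% of all genes with such a mean) and 9 were not called. The lower gene was Tnfrsf1a, a TNF receptor, at -0.26 ± 0.08 in the authors' deposited table. The more abundant TNF receptor gene Tnfrsf1b had a like estimate, -0.27 ± 0.11 (adjusted p = 0.0761) per the authors' deposited table, without a call.

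Of 24 chemokine receptor signalling genes, 5 were lower (20.8%) and 0 higher, a share of lower calls near the 17.6% of all genes with a mean of at least 1000. Gnai2, a G protein subunit that chemokine receptors couple to, was at -0.23 ± 0.06, Plcb3, a phospholipase, at -0.30 ± 0.07, Rgs1, which ends G protein signals, at -0.43 ± 0.15 and the small GTPase gene Rac1 at -0.15 ± 0.06 in the authors' deposited table. Of 17 genes that control cytokine transcripts, 6 were lower (35.3%) and 0 higher. Rc3h2, a paralog of roquin, was at -0.22 ± 0.05, Zfp36l2, which marks AU-rich mRNAs for decay, at -0.26 ± 0.07, and the transcription factor genes Cebpd and Irf8 at -0.42 ± 0.12 and -0.12 ± 0.04 in the authors' deposited table.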

How the data were processed

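Polyadenylated RNA of 8 libraries was measured, 4 control and 4 knockout, grouped by sample title. The submitters' processing notes name FastQC, cutadapt, Salmon, DESeq2 and the build mm10; what each did, its version and its settings were not given in the sources used. The deposited comparison holds, per the file headers, the authors' mean normalized count (a signal over all libraries), log2 fold change with its SE on the log2 scale, Wald score, p-value and adjusted p-value. As a check, fold change over SE gave the deposited score to within 1.12e-07, and a Benjamini-Hochberg adjustment gave the deposited adjusted p-value to within 5.66e-09. The 8 columns of values per library match no sample label and were not used, so the depth of each library is unknown. Calls are those of the authors' DESeq2 adjusted p, and no further test was made.

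All 81 symbols matched a GENCODE M21 gene, Il36g through a RefSeq synonym. The members and lists were chosen with earlier results of these data known. Named genes were the called members, the most abundant ligands and receptors, Tnf, Il1b, Il10, Il1rn, Ccr2 and Cx3cr1, partners of named genes and up to 4 called genes per list; the remaining members are given as values, except 1 that is counted but not reported here by name. Alternatives were other filters on the mean, other thresholds and centring of all fold changes. The steps were tested on simulated data (Python 3.11.15, pandas 2.3.3, scipy 1.17.1).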

Additional observations from a re-analysis of the deposited data

How the results depend on the processing

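Called members had the same direction under the filters, thresholds and centrings run. All 23 calls were kept with no filter on low values and with fold changes centred on the median gene (a shift of -0.00). Centring on the summed group means (a log2 shift of -0.06) kept 21, lost Ccr3 and Il17ra and gained Ccl2 and Il1b, and it left 16 of the pathway genes called in place of 25. At a threshold of 0.01, 15 members were called, of which 2 are ligands, and 11 pathway genes. Of these ligands 1 was higher and 1 lower, and the ligand calls lost were Ccl7, Ccl12, Ccl25, Il1rn and Cxcl16. At 0.1, chosen after seeing the data, 12 ligands were called. With p-values adjusted over genes with a mean of at least 1000, also chosen after seeing the data, 14 members were called, 4 ligands and 10 receptors, of 30 tested. The ligand median minus the receptor median was 0.32 with no filter, 0.15 at a mean of at least 50, 0.19 at a mean of at least 1000 and 0.16 without Il1rn, the last 2 also chosen after seeing the data. For 8 members of low mean no adjusted p was given. Fits to values per library (limma, other pseudocounts, leaving out each library) were not run, since those columns match no label. No paired analysis was possible because no column could be tied to a numbered sample.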
